A study of Mus musculus with 104 samples.

Results

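The supraoptic nucleus and the paraventricular hypothalamic nucleus hold the magnocellular neurosecretory neurons, large cells that make vasopressin or oxytocin and send their axons to the posterior pituitary. The 4 arrays labelled with these nuclei (2 for SO, the supraoptic nucleus, and 2 for Pa, the paraventricular nucleus), from a series of 52 regions with 2 arrays each, were compared with the 20 arrays of 10 other hypothalamic regions, each region weighing equally. The reference regions were the mammillary body (M), the median eminence (ME), the suprachiasmatic nucleus (SCN), the medial preoptic area (MPA), the ventral and dorsal subparaventricular zones (SPa ventral and SPa dorsal), the dorsomedial (DM), ventromedial (VMH) and arcuate (Arc) nuclei and the lateral hypothalamus (LH). The members were chosen by these labels, and earlier results of these data were known when members and gene lists were chosen. The genes described are those higher, or lower, in each of the nuclei.

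All tissue came from male Balb/c mice of 7 to 8 weeks, with no gene altered and no drug given. The mice were bought at 5 weeks and kept for 2 weeks in cycles of 12 hours of light. Tissue was then taken in the light cycle or in constant darkness, and the labels do not say which applied to which array. Punches from slices 0.5 mm thick were collected every 4 hours and pooled over 6 time points, so each array averages a day and a punch can hold tissue next to the named nucleus. Nothing says that the arrays of a region came from separate animals, so p-values measure the spread between arrays only, which may be technical.

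In vasopressin and oxytocin neurons, the hormone is made as a precursor with its carrier, a neurophysin, cut by prohormone convertases in dense core granules and released into the blood. Vasopressin acts on water balance and blood pressure, and oxytocin on birth, milk ejection and social behaviour. The paraventricular nucleus also holds smaller, parvocellular neurons that make releasing hormones such as CRH and TRH, while the supraoptic nucleus is almost purely magnocellular and lies at the ventral surface of the brain beside the optic tract. The transcription factors Otp, Sim1, Pou3f2 and Arnt2 are needed for these neurons to form.

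The Avp and Oxt genes lie next to each other on mouse chromosome 2, on opposite strands, with 0 genes between them in the RefSeq table of build GRCm38.p6. The 250 bases before the start of each are shown because these gave the largest increases among the genes higher in each nucleus, and those of Caprin2 because its product binds vasopressin mRNA and it too was higher in each nucleus. The windows are chr2:130582589-130582838 on the minus strand for Avp, chr2:130575919-130576168 on the plus strand for Oxt and chr6:148896238-148896487 on the minus strand for Caprin2, and all sequences are from RefSeq. Capitals mark 3 motifs searched on both strands: the E box CACGTG, the core TGACAG that MEIS homeodomain factors can bind, and AGGTCA, a site for nuclear receptors. On the other strand the MEIS core reads CTGTCA and the nuclear receptor motif TGACCT. The motifs share no bases here.
Avp: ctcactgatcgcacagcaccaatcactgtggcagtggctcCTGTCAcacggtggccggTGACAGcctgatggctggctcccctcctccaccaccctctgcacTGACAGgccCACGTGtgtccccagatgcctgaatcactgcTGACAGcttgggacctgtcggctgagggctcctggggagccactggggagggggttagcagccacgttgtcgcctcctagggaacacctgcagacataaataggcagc
Oxt: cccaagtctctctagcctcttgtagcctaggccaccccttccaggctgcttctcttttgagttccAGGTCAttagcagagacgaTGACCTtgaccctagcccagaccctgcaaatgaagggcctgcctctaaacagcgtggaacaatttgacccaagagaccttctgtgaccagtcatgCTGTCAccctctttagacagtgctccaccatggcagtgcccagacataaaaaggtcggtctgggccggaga
Caprin2: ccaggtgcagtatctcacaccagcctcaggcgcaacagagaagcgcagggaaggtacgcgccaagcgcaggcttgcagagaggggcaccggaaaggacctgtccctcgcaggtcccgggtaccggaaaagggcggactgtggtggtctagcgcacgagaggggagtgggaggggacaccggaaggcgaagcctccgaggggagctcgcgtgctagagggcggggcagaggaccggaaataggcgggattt
Avp held 4 MEIS cores, at -210, -192, -148 and -108 from the start, and 1 E box at -139. Oxt held 2 AGGTCA motifs, at -185 and -166, and 1 MEIS core at -71. Caprin2 held 0 of the 3 motifs. Of 32851 promoters of the same length, 15.9% held at least 1 MEIS core and 0.122% at least 3, 6.02% held an E box, and 14.02% held at least 1 AGGTCA and 1.36% at least 2. These matches describe letters, not bound sites.

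Values are log2 levels, so a difference of 1 is 2-fold. Of 18193 genes, a gene was called at a limma adjusted p under 0.05 with a difference of at least 2-fold, in a fit that took the spread between arrays from all 52 regions. On the mean of both nuclei, 72 genes were higher than in the other hypothalamus (0.396% of the genes tested) and 62 were lower (0.341%). Alone, the supraoptic nucleus had 485 genes higher (2.67%) and 403 lower (2.22%), against 27 higher (0.148%) and 43 lower (0.236%) in the paraventricular nucleus. Higher in each nucleus were 6 genes (0.033%): Avp, Oxt, Ebf3, Meis2, Zic1 and Caprin2. Lower in each were 15 genes (0.0824%). Both single comparisons share the reference arrays, so their overlap was not tested. When each of the 12 regions was reduced to its mean and the fit repeated on those 12 values, limma called 0 genes on the mean of both nuclei (lowest adjusted p 0.323). At an unadjusted p under 0.05 there were 1832 genes of any size, of which 27 were at least 2-fold higher and 32 lower. The calls below thus say that the nuclei exceeded the average of these regions by more than the spread between arrays, not by more than the spread between regions.

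**Figure D1:**
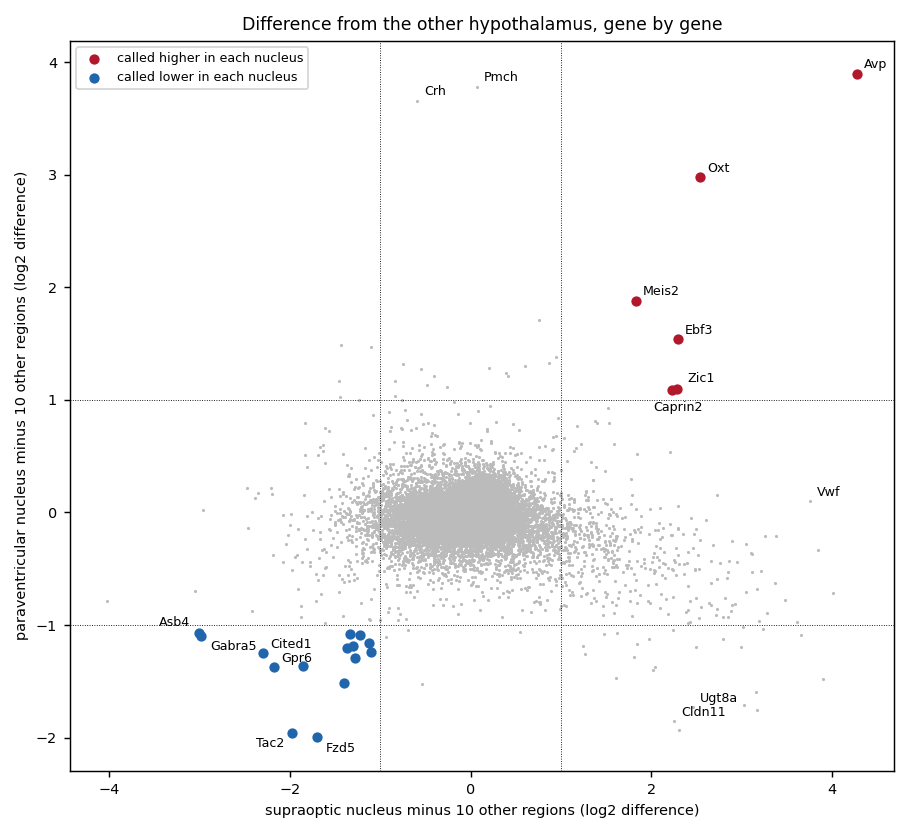
Each point is a gene, placed by its log2 difference from the mean of the 10 other regions in the supraoptic nucleus (horizontal) and in the paraventricular nucleus (vertical); dotted lines mark 2-fold. The 6 genes called higher in each nucleus are red and the 15 called lower are blue; most large differences of the supraoptic nucleus lie near or below 0 in the paraventricular nucleus.

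Within a region, the pair of arrays had an r across genes of 0.993 to 0.998 and a median SD of 0.05 to 0.11 per gene. The 9 probe sets of added control RNA split the 12 regions into a high and a low set. Their mean was 10.65 to 11.21 in SO, Pa, M, MPA, VMH, Arc and LH. In ME, SCN, both SPa zones and DM it was 9.29 to 9.93. The nuclei sit in the high set with 5 of the reference regions. Against those 5 alone, 7 genes were higher in each nucleus, among them all 6, and 14 were lower, of which 11 were among the 15. Against the other 5 regions, 11 were higher, again with all 6, and 30 were lower, of which 13 were among the 15. The arrays labelled LH were low in the orexin precursor Hcrt, at 7.32 and 7.78, which stood at 11.17 and 11.05 in DM. Without LH in the reference, 8 genes were higher in each nucleus, again with all 6, and 20 were lower, of which 14 were among the 15.

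Vasopressin mRNA was the gene with the largest increase, and no reference array reached it. Avp stood at 14.28 and 14.41 in the supraoptic nucleus and at 14.20 and 13.73 in the paraventricular nucleus. The 20 reference arrays ran from 7.03 to 13.32 with a median of 10.22. The reference values themselves spread widely: the arcuate arrays were at 12.81 and 13.32, the medial preoptic area at 12.09 and 12.51 and the suprachiasmatic nucleus, which has vasopressin neurons of its own, at 12.43 and 11.70, while the mammillary body (7.05 and 7.17) and the dorsomedial nucleus (7.09 and 7.03) were lowest. Against the mean of the 10 regions, 10.07, Avp was higher by 4.28 ± 0.16 (SE), or 19.4-fold, in SO (limma adjusted p = 1.2e-31) and by 3.897 ± 0.16, or 14.9-fold, in Pa (6.1e-29). The difference between the nuclei, 0.38, had an adjusted p of 0.17. Taking the 12 region means as the samples, the difference of 4.09 had an exact two-sided permutation p of 0.0303, which is 2 of 66 splits where 0.0152 is the smallest possible. Without Pa replicate 1 the difference was 3.97 and the exact p 0.0606.

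Among the genes called in each nucleus, oxytocin mRNA was next in size. Oxt stood at 13.92 and 14.31 in SO and at 14.84 and 14.27 in Pa, against 10.05 to 14.26 with a median of 11.35 in the reference. The medial preoptic area was the exception, at 14.26 and 14.18, level with the nuclei; both of its arrays lay above the lower SO array. The arcuate arrays followed at 12.94 and 13.12, and M, SPa dorsal and DM lay between 10.05 and 10.20. Oxt was higher by 2.54 ± 0.14 in SO (5.82-fold, limma adjusted p = 6.7e-24) and by 2.98 ± 0.14 in Pa (7.89-fold, 6.6e-26), and the exact permutation p over region means was also 0.0303. SO minus Pa was -0.44 (limma adjusted p = 0.06). Both hormone genes lay near 15.15, the highest value in the table, and whether the arrays were saturated there was not tested. The neurophysin parts of the mRNAs are alike, and cross-hybridisation between the probe sets was not tested.

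Caprin2, an RNA-binding protein that binds vasopressin mRNA, was the other gene of the 6 without overlap. It stood at 9.77 and 9.86 in SO and at 8.96 and 8.40 in Pa, while the reference ran from 6.85 to 8.22 with a median of 7.64 and its highest arrays, 8.22 and 7.96, in MPA. It was higher by 2.22 ± 0.12 in SO (4.67-fold, limma adjusted p = 7.9e-25) and by 1.09 ± 0.12 in Pa (2.13-fold, 9.8e-11). The nuclei also differed from each other, by 1.13 (limma adjusted p = 1.4e-08), with SO higher. The increase in Pa rests on its replicate 1: without it, Caprin2 was below 2-fold there and was not called in each nucleus.

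The remaining genes of the 6 are transcription factors, and for each some other hypothalamic region lay within or above the range of the nuclei. Ebf3, a factor of the early B cell family, stood at 8.61 and 8.57 in SO and 7.98 and 7.69 in Pa. In DM it was above both, at 9.26 and 9.24, and the other 18 reference arrays ran from 5.62 to 6.73. Its increases were 2.29 ± 0.14 in SO (limma adjusted p = 4.2e-22) and 1.54 ± 0.14 in Pa (2.8e-13). The other probe sets of Ebf3 gave 2.25 and 1.78 in SO and Pa, and 1.70 and 0.96, the last under 2-fold.

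Meis2, a TALE homeodomain factor, stood at 8.94 and 8.85 in SO and 8.55 and 9.34 in Pa. LH was higher still, at 9.53 and 9.37, and the other reference arrays lay between 6.14 and 7.50. Meis2 was higher by 1.83 ± 0.15 in SO (limma adjusted p = 8.6e-17) and by 1.88 ± 0.15 in Pa (1.3e-15), and the nuclei differed by -0.05 (adjusted p = 0.88). Its 4 probe sets did not agree: the differences in SO and Pa were 1.29 and 1.61 for another probe set, 0.62 and 0.64 for the next, and -0.01 and 0.47 for the last. With the mean of all its probe sets, Meis2 was not called in each nucleus.

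Zic1, a zinc finger factor of patterning, stood at 12.37 and 12.12 in SO and 11.005 and 11.11 in Pa. Its reference arrays, from 7.63 to 12.21 with a median of 9.72, fell into a high set in SCN (11.96 and 11.94), SPa ventral (12.21 and 11.76), MPA (11.48 and 12.13) and LH (10.84 and 11.68) and a low set in Arc, VMH, DM, SPa dorsal and ME (7.63 to 8.94), with M at 10.61 and 10.51. Zic1 was higher by 2.28 ± 0.32 in SO (limma adjusted p = 1.9e-08) and by 1.09 ± 0.32 in Pa (0.019). With this brighter probe set, SO was above Pa by 1.19 (limma adjusted p = 0.027). With the other probe set, the means were 10.30 in SO and 10.27 in Pa. In Pa the call with the brighter probe set rests on both arrays and is lost without either. It is lost too without ME, SPa dorsal, DM, VMH or Arc in the reference. The other probe set was higher by 1.81 in SO and 1.78 in Pa (limma adjusted p = 0.00081 in Pa, in a fit of every probe set). With it, SCN, MPA and SPa ventral were above both nuclei, at means of 11.04, 10.93 and 11.18. Whether its call in Pa depends on single arrays or regions was not tested.

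**Figure D2:**
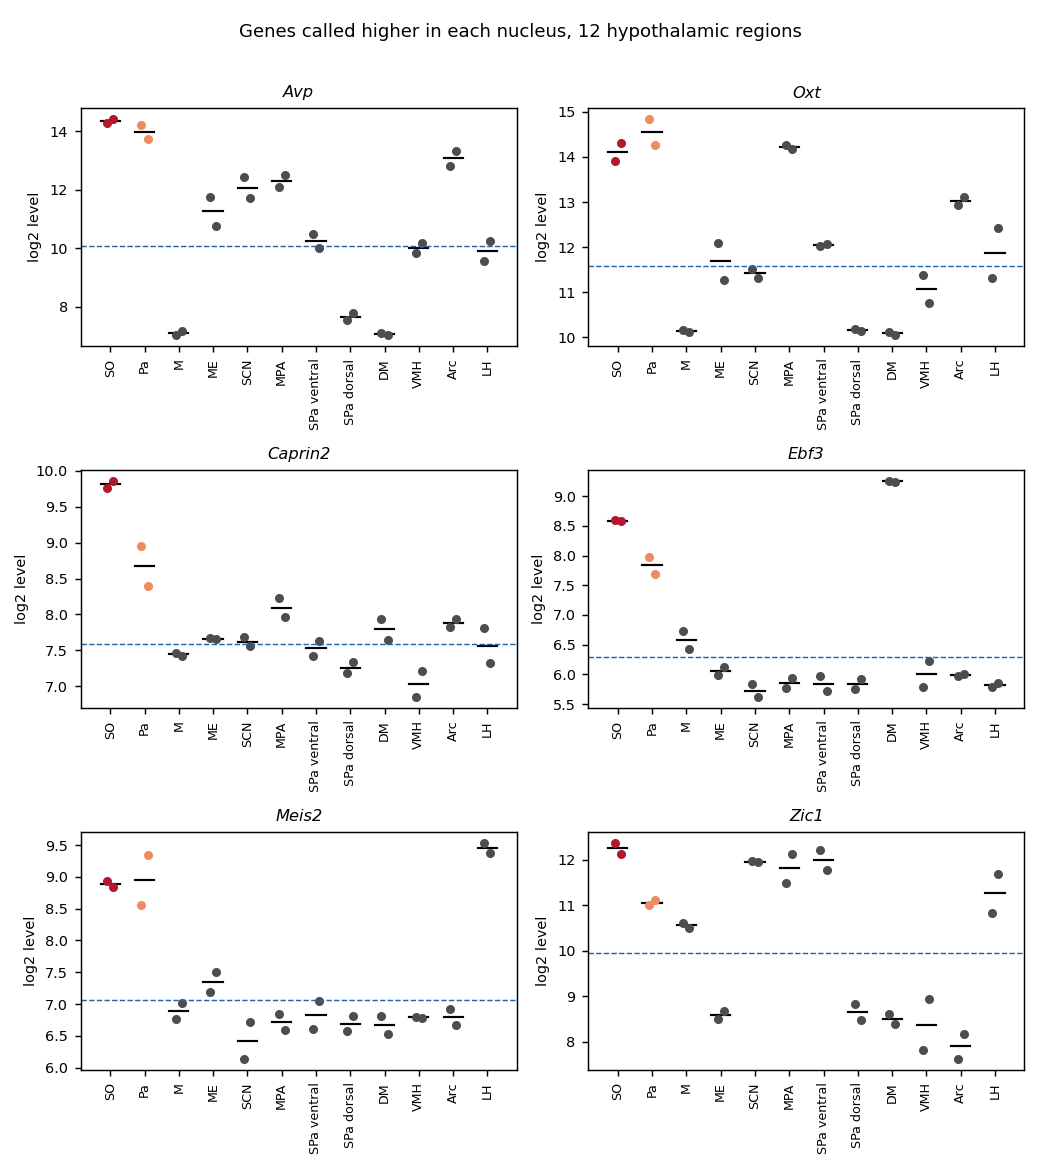
Log2 level of the 6 genes called higher in each nucleus in the 12 hypothalamic regions; points are arrays, black bars the mean of 2 arrays, and the dashed blue line the mean of the 10 reference regions. Avp and Caprin2 are above every reference array in all 4 arrays of the nuclei, while Oxt is matched in MPA, Ebf3 exceeded in DM, Meis2 exceeded in LH and Zic1 matched in several regions.

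Across all 52 regions, which reach from the olfactory bulb to the spinal cord, SO and Pa ranked first and second for 18 of 18193 genes. Of these, Avp and Caprin2 were also called higher in each nucleus. The preoptic area was next for both, at 13.56 for Avp and 8.21 for Caprin2. For Oxt the order was Pa, MPA (14.22), SO and the preoptic area. Ebf3 was highest in the posterior spinal cord (9.50), Meis2 in the anterior olfactory bulb (12.61) and Zic1 in the lateral septum.

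The POU factor Pou3f2, called in SO and under 2-fold in Pa, was higher in all 4 arrays than in any reference array. Pou3f2 stood at 10.24 and 9.87 in SO and at 9.59 and 9.70 in Pa, against 8.57 to 9.34 with a median of 8.85. It was higher by 1.18 ± 0.11 in SO (limma adjusted p = 2.3e-14) and by 0.77 ± 0.11, or 1.71-fold, in Pa (3.6e-07). Its other probe sets gave 1.45 and 1.01 in SO and Pa, and 1.32 and 0.46.

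Sim1 depended on the probe set. The brighter one stood at 7.46 and 7.92 in SO and 7.82 and 7.49 in Pa, above the reference mean of 7.12 by 0.56 and 0.53. The other stood at 7.57 and 7.90 in SO and 7.88 and 7.88 in Pa, above the reference mean of 6.20 by 1.53 (limma adjusted p = 7.2e-16 in a fit of every probe set) and 1.68 (1.4e-15). With it, the reference reached 7.80, with the mammillary body, another place of Sim1 neurons, highest at a mean of 7.47, and SCN, ME, VMH, Arc and SPa dorsal at 5.30 to 5.62. In that fit, 9 genes were higher in each nucleus, adding Sim1, Pou3f2 and Fign to the 6.

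At a limit of 1.5-fold, 21 genes were higher in each nucleus (0.115% of the genes tested), so 15 reached 1.5-fold in each but were under 2-fold in at least 1 nucleus. Pcsk1, the prohormone convertase that cuts peptide precursors, stood at 10.15 and 10.04 in SO and 9.72 and 9.36 in Pa, with the reference from 8.03 to 9.41. It was higher by 1.37 in SO and 0.82 in Pa, and 1 reference array, in Arc, lay above the lowest of the 4. Ptger4, a receptor for prostaglandin E, stood at 8.52 and 8.85 in SO and 8.38 and 7.82 in Pa. All 20 reference arrays lay below, from 6.69 to 7.76, and the differences were 1.52 and 0.93. Nog, the BMP antagonist noggin, was at 8.01 and 8.22 in SO and 7.89 and 7.59 in Pa against a reference maximum of 7.42.

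In the same range were Trh (0.60 in SO and 1.30 in Pa), which was above all 4 arrays in MPA at 10.96 and 10.99, and Th, which makes the dopamine precursor (0.82 and 0.59), which was level with the nuclei in MPA (9.70 and 9.76) and Arc (9.88 and 9.81). Nrn1 (0.94 and 1.38), Necab1 (0.87 and 1.33), Ebf1 (1.53 and 0.80), Grm3 (1.40 and 0.79), Fign, Angpt1, Tent5a, Tm4sf1 and 1 clone with a provisional name made up the rest. In all, 34 genes had the 4 arrays of the nuclei above all 20 others (0.187% of the genes tested). Most of these differences were small, with a median of 0.28, and 5 of the 34, Avp, Caprin2, Pou3f2, Ptger4 and Nog, were at least 1.5-fold higher in each nucleus.

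**Figure D3:**
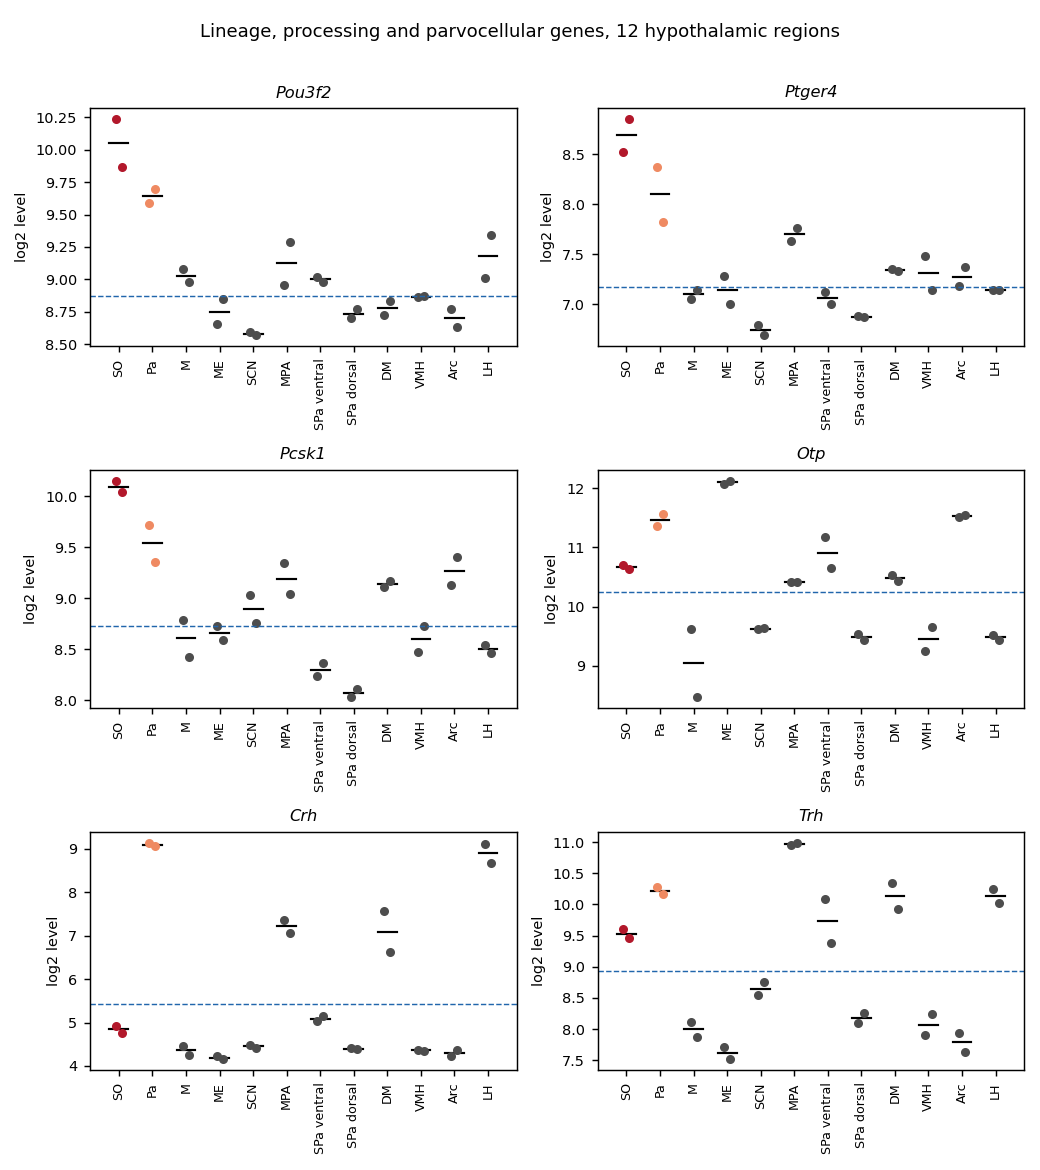
Log2 level of Pou3f2, Ptger4, Pcsk1, Otp, Crh and Trh in the 12 hypothalamic regions; points are arrays, black bars the mean of 2 arrays, and the dashed blue line the mean of the 10 reference regions. Pou3f2 and Ptger4 are high in both nuclei, whereas Crh is at 9.14 and 9.06 in Pa and at 4.93 and 4.76 in SO.

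The gene lists here and below were chosen with earlier results of these data known, so their counts are no independent test. Beside them stand the shares over all genes: 2.67% higher and 2.22% lower in SO, and 0.148% and 0.236% in Pa. Of the 14 peptide and transmitter genes known from magnocellular neurons, Avp and Oxt were the only members called in each nucleus. Crh and Trh were higher in Pa alone. On the mean of both nuclei 3 were higher and 1 lower, with a list median of 0.13 where the median of all genes was 0.02. Pdyn, the dynorphin precursor of vasopressin neurons, stood at 7.15 and 7.43 in SO and 6.80 and 6.84 in Pa. Its differences of 0.64 in SO and 0.18 in Pa were under 2-fold. Cartpt was lower in SO by 2.46, at 8.56 and 8.68 against a reference mean of 11.08, and differed by -0.14 in Pa. Gal (0.11 and -0.38), Nos1 (-0.10 and 0.28) and Cck (-0.78 and -0.90) were not called in either nucleus.

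Of 14 genes of the parvocellular list, 4 were lower in SO than in Pa in the direct comparison (Crh, Sst, Penk and Adcyap1) and 0 were higher. Against the reference, 2 were higher and 2 lower in Pa, and 0 higher and 4 lower in SO. Crh, the peptide that drives the stress axis, stood at 9.14 and 9.06 in Pa, at 4.93 and 4.76 in SO and between 4.17 and 9.12 in the reference, where LH (9.12 and 8.68) was level with Pa. Crh was higher in Pa by 3.66 ± 0.26 (limma adjusted p = 6.3e-17), and SO minus Pa was -4.26 (5.7e-16). Trh was higher in Pa by 1.30. Sst, somatostatin, was lower in SO by 1.67. Nts and Vip were lower in each nucleus, but Nts differed by -0.35 in SO (limma adjusted p = 0.135) and -0.49 in Pa (0.0637) against the regions with low added controls, and Vip by -0.13 and -0.16 against those with high ones.

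Among 22 transcription factors of the hypothalamic lineages, 2 were higher and 3 lower in SO and 2 higher in Pa. Meis2 was shared, and Pou3f2 was the other gene higher in SO. Otp stood at 11.37 and 11.56 in Pa, higher by 1.22 (limma adjusted p = 8.9e-11), and at 10.70 and 10.64 in SO, a difference of 0.42. ME (12.07 and 12.12) and Arc (11.51 and 11.55) were at or above Pa. Arnt2 differed by 0.06 in SO and 0.50 in Pa. Isl1, Dlx1 and Six6, factors of other hypothalamic neurons, were lower in SO by 2.36, 1.56 and 1.46.

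Of 19 receptors for the hormones, for steroids and for osmotic signals, 0 were higher in SO and 2 in Pa: Agtr1a, the angiotensin receptor, by 1.28 and Cckar, a cholecystokinin receptor, by 1.32. The vasopressin and oxytocin receptors were close to the reference, with differences in SO and Pa of -0.21 and -0.04 for Avpr1a, -0.02 and 0.18 for Avpr1b and 0.13 and 0.08 for Oxtr. The steroid receptors Esr1 (-1.44) and Pgr (-1.19) were lower in SO. Glp1r was below 2-fold, at 0.67 in SO and 0.36 in Pa.

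Of 22 genes of the secretory granule and peptide processing, 1, Pcsk1, was higher in SO, where 2.67% of all genes were. Another 5 were lower there (2.22% of all genes): Baiap3, Chga by 1.66, Chgb by 1.15, Syt4 by 1.03 and Scg2 by 1.02. Chga, chromogranin A, stood at 9.19 and 8.95 in SO, below all reference arrays (9.76 to 12.64). In Pa 0 were called, with a median of -0.05. Cpe, the carboxypeptidase that trims the peptides, was at 13.49 and 13.33 in SO and 13.49 and 13.59 in Pa, close to the reference mean of 13.48.

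Of 23 genes of protein folding in the endoplasmic reticulum, limma called 0 in either nucleus, with medians of 0.26 in SO and 0.03 in Pa. Hspa5, the chaperone BiP, differed by 0.41 in SO (limma adjusted p = 0.0013) and 0.03 in Pa. Creb3l1, a transcription factor of osmotic stimulation, differed by 0.30 and 0.06, and Creb3l2 by 0.98 and 0.02. Of 17 osmotic response genes, 4 were higher and 2 lower in SO and 1 higher in Pa. Caprin2 was shared; Aqp4 (2.47), Slc38a2 (1.601) and Slc12a2 (1.19) were higher in SO and differed by -0.19, -0.61 and -0.53 in Pa. The 12 immediate early genes, markers of recent activity, had 0 calls in either nucleus and medians of 0.18 in SO and -0.20 in Pa. Of 18 core clock genes, 2 (Rora and Rorb) were lower in SO, where 2.22% of all genes were, and 0 were called in Pa.

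Of 24 channel and receptor subunit genes of excitability, 3 were lower in SO and 1 in Pa, and 0 were higher. Kcnh1, a voltage-gated potassium channel, was without overlap at 9.68 and 9.52 in SO and 9.38 and 9.49 in Pa against 7.90 to 9.27, a difference of 0.66 and 0.49. Kcnmb4, a subunit of the large conductance potassium channel, differed by 0.81 and 0.47. Transmitter genes also differed between the nuclei: of 6 genes of GABA synthesis and release, 5 were lower in SO and 1, Gad2, was higher in Pa (1.00). Gad1 stood at 10.76 and 10.51 in SO and at 12.09 and 12.33 in Pa, against a reference mean of 11.91. Slc17a6, the vesicular glutamate transporter of hypothalamic neurons, was lower in SO by 1.01 and differed by -0.32 in Pa, and it was the only call among 2 genes of glutamate release.

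Genes lower in each nucleus were led by a GABA-A receptor subunit and by genes of other hypothalamic nuclei. Gabra5, the alpha 5 subunit, stood at 6.43 and 6.15 in SO and at 8.11 and 8.25 in Pa. All reference arrays were higher, from 8.48 to 10.25 with a median of 9.09. It was lower by 2.98 ± 0.16 in SO (limma adjusted p = 2.7e-24) and by 1.10 ± 0.16 in Pa (7.7e-07), and SO minus Pa was -1.89 (6.5e-11). Its call in Pa was lost without SPa dorsal in the reference.

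Tac2, the precursor of neurokinin B, was low in both. It stood at 7.16 and 7.59 in SO and at 7.13 and 7.65 in Pa, below all 20 reference arrays (7.89 to 11.44, median 9.59), of which LH and Arc were highest. Its differences were -1.98 ± 0.19 (limma adjusted p = 1.3e-13) and -1.96 ± 0.19 (5.2e-12). Npnt, the matrix protein nephronectin, was the third gene of the 15 without overlap, at 6.76 to 7.10 against a reference minimum of 7.18, but its other 4 probe sets gave -0.60 to 0.10 in SO and -0.43 to 0.26 in Pa. Against the regions with high added controls it differed by -0.59 in Pa (limma adjusted p = 0.0935). In all, 31 genes had the 4 arrays below all 20 others (0.17% of the genes tested).

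Asb4, Cited1, Pomc, Npy and Fzd5 were lower against regions around the arcuate nucleus. Asb4, a subunit of ubiquitin ligases, stood at 5.59 and 5.70 in SO and 7.56 and 7.59 in Pa, with reference arrays from 6.14 to 10.81 and the ME, Arc and DM arrays at 10.04 to 10.81. It was lower by 3.01 in SO and 1.07 in Pa. It was no longer called in each nucleus without ME, DM or Arc, without either Pa array or without M replicate 1. Its other probe set gave -2.38 in SO and -0.75 in Pa (limma adjusted p = 0.072 in Pa, in a fit of every probe set). Against the regions with high added controls, Asb4 differed by -0.47 in Pa (limma adjusted p = 0.343). Pomc, the precursor of melanocortins, stood at 8.44 and 8.30 in SO and 8.21 and 8.27 in Pa. Its reference median was 8.70, and Arc (12.79 and 13.19), ME (12.17 and 12.32), VMH and SCN raised the reference mean to 9.76. Npy stood at 8.93 and 8.79 in SO and 9.08 and 8.89 in Pa, with a reference median of 9.18 and the ME and Arc arrays at 13.40 to 13.66; without ME, without Arc or against the regions with low added controls it was no longer called in each nucleus. The Wnt receptor Fzd5, at 6.58 and 6.24 in SO and 6.12 and 6.11 in Pa, was close to LH (6.16 and 6.25) and far below ME (11.83 and 12.20), and its other probe set gave -0.21 and -0.20. The transcriptional coregulator Cited1 was lower by 2.29 in SO and 1.25 in Pa, and without Arc it was no longer called.

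Among the others, Gpr6, an orphan receptor, stood at 5.67 and 5.21 in SO and 6.34 and 6.15 in Pa, and only LH (6.36 and 6.13) was near. The adhesion molecule Nectin3 was lower by 1.37 and 1.21 and was no longer called in each nucleus without Pa replicate 1; another of its probe sets gave -1.10 and -1.28, and the other 4 gave -0.34 to 0.09 in SO and -0.36 to -0.13 in Pa. Oas1c, of a family of close copies whose cross-hybridisation was not tested, was at 6.23 to 6.43 in the nuclei; its reference arrays were at 6.04 to 6.45 in M, MPA, VMH, Arc and LH and at 7.14 to 10.68 in the other 5 regions, which are those with low added controls. Against the regions with high added controls Oas1c differed by 0.09 in SO and 0.07 in Pa, so its direction turned. Vip, not called against those regions either, had its arrays at 13.75 and 13.71 in SCN and at most 9.36 elsewhere in the reference. Strip2, Nts and Lrat complete the 15. Strip2 stood at means of 4.98 in SO and 5.48 in Pa, against reference arrays from 5.60 to 8.49. Lrat stood at 5.60 and 5.74 against a reference median of 5.66, and ME (11.95) and Arc (10.92) raised the reference mean to 6.82. Nts stood at 7.86 and 7.71 against a reference median of 8.57. Its region means were 7.17 in ME and 7.75 in SPa dorsal, and highest in MPA (11.60) and LH (10.91). At 1.5-fold, 59 genes were lower in each nucleus (0.324% of the genes tested).

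**Figure D4:**
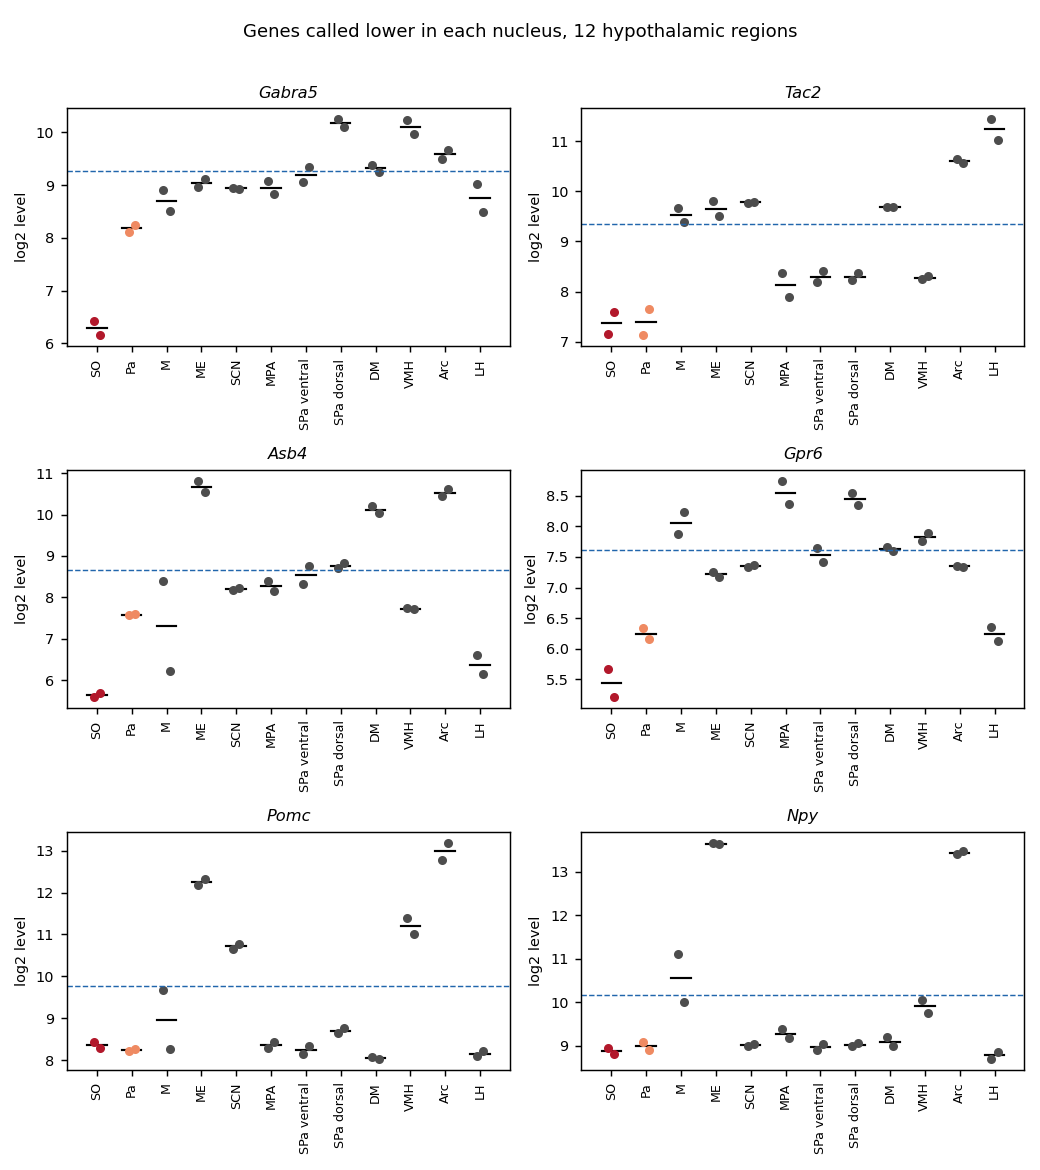
Log2 level of 6 genes called lower in each nucleus in the 12 hypothalamic regions; points are arrays, black bars the mean of 2 arrays, and the dashed blue line the mean of the 10 reference regions. Gabra5 and Tac2 lie below every reference array in both nuclei, whereas Pomc and Npy match several regions and their reference mean is raised by ME and Arc.

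Markers of neighbouring nuclei were mostly lower or not called, with Pmch and Trh higher in Pa. Of 7 arcuate genes, 4 were lower in SO and 3 in Pa, with medians of -1.13 and -0.95. Of 9 suprachiasmatic genes, 4 were lower in SO and 1 in Pa. Of 10 genes of the ventromedial, dorsomedial and lateral hypothalamus, 3 were lower in SO and 2 higher in Pa. The latter were Trh and Pmch, the melanin-concentrating hormone precursor, which stood at 13.03 and 13.79 in Pa and at 10.20 and 9.18 in SO. Pmch was also high in DM (13.93 and 14.03), SPa dorsal (12.91 and 13.58) and VMH (12.97 and 12.58), and it was higher in Pa by 3.78 ± 0.27 (limma adjusted p = 8.8e-17). Of 7 mammillary genes and 11 striatal, amygdalar and cortical genes, limma called 0 in either nucleus, with medians of -0.08 and 0.02, and of -0.31 and -0.09, in SO and Pa. Of 9 genes of basal forebrain cholinergic neurons, Zic1 was the shared call and Isl1 was lower in SO; Chat differed by 0.15 and 0.05. Of 7 anterior pituitary genes, 1 (Pomc) was lower in SO and 2 (Pomc and Cga) in Pa, where ME held Cga at up to 12.75.

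Non-neuronal markers differed most in the supraoptic nucleus. Of 12 genes of meninges and fibroblasts, 11 were higher in SO, with a median of 2.35, and 0 higher and 2 lower in Pa, with a median of -0.70. The mean level of that list was 10.55 and 10.62 in the SO arrays, 7.59 and 7.66 in the Pa arrays and 7.48 to 10.15 in the reference arrays. Slc6a13, a transporter of the meninges, stood at 10.79 and 10.68 in SO and 6.95 and 7.22 in Pa. Of 11 myelin genes, 10 were higher in SO (median 2.19) and 3 lower in Pa (median -0.82); Mobp stood at 13.32 and 13.36 in SO and 9.78 and 10.33 in Pa. The mean level of the myelin list was 11.80 and 11.96 in SO, 8.76 and 9.02 in Pa and 8.53 to 11.98 in the reference.

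Endothelial and pericyte genes had 6 of 12 higher in SO and 0 in Pa, led by Vwf at 9.41 and 9.56 in SO against at most 6.42 in the reference. Microglia and macrophages had 4 of 12 higher in SO, astrocytes 3 of 12, oligodendrocyte precursors 1 of 7, and erythroid cells 1 of 2 (Alas2), with 0 of each higher in Pa. Over all genes, 2.67% were higher in SO and 0.148% in Pa. Of 4 genes of fenestrated vessels, Plvap was lower in SO by 1.25 and 0 were called in Pa. Of 10 ependymal and tanycyte genes, Ccdc153, Tmem212 and Dynlrb2, which serve motile cilia, were higher in Pa by 1.47, 1.49 and 1.03 and lower in SO by 1.10, 1.44 and 1.45, and Vim was higher in SO.

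Of 8 choroid plexus genes, Ttr was higher in Pa, at 12.64 in replicate 1 and 9.74 in replicate 2, so its call rests on replicate 1, and Kcnj13 was higher in SO. Over all 18193 genes, 24 were called higher in SO and lower in Pa, and 5 the other way. No marker was at 0, since the lowest value in the table is 3.88. Whether tissue next to the nuclei had a part in the genes higher or lower in each nucleus was not tested. In tissue punches, fewer cells of a type and less RNA per cell cannot be told apart.

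**Figure D5:**
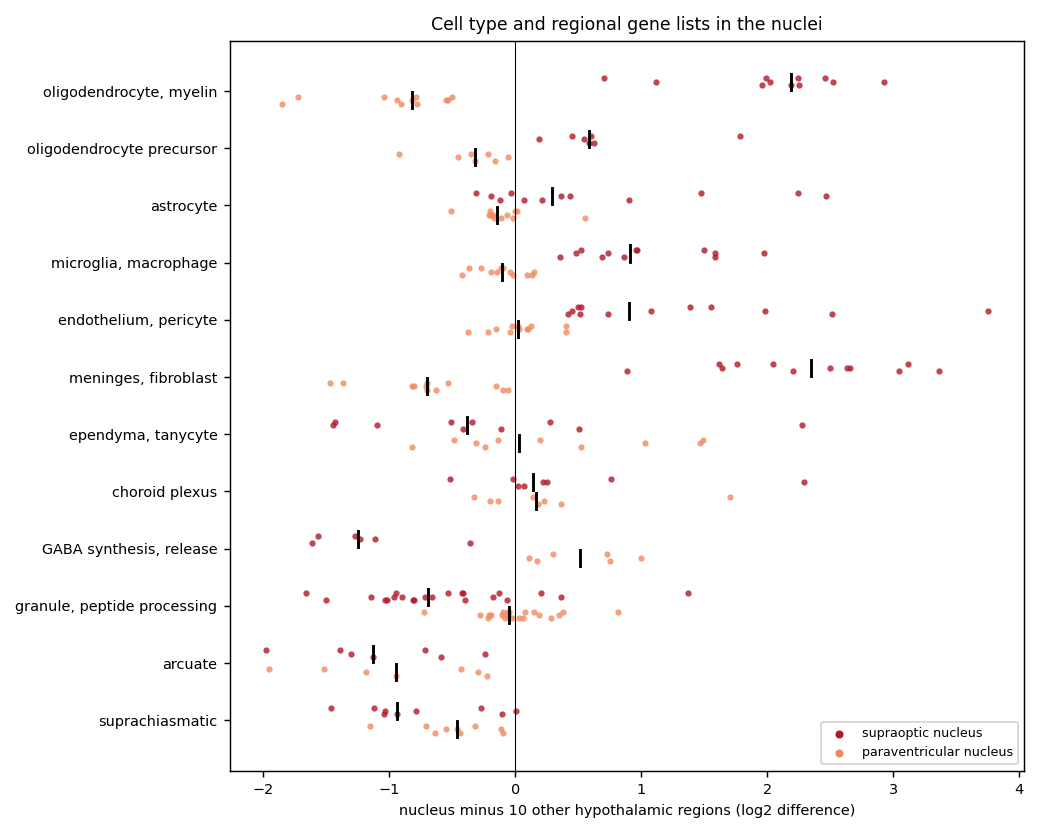
Log2 difference from the mean of the 10 other hypothalamic regions for the genes of 12 lists; each point is a gene, in the supraoptic (dark) or paraventricular (light) nucleus, and black bars are list medians. Myelin and meningeal genes are high in SO, with medians of 2.19 and 2.35, and below 0 in Pa; arcuate genes are low in both.

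Between the nuclei directly, 675 genes were higher in SO than in Pa (3.71% of the genes tested) and 431 lower (2.37%). Among the 21 genes called in each nucleus, Caprin2 and Zic1 were higher in SO, and Gabra5, Asb4 and Cited1 lower. Zic1 differed with its brighter probe set only, as the other had means of 10.30 in SO and 10.27 in Pa.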

How the data were processed

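The deposited table held log2 values of 45101 probe sets from Affymetrix whole-genome mouse arrays, which the authors made with RMA, per the submitters' processing notes; its version is not given in the sources used here. RMA draws the arrays toward a common distribution, so values are relative levels. The medians of the arrays still ran from 7.33 to 7.46. Trizol extracts went through a single biotin labelling cycle, per the labels' protocols. Of the probe sets, 34945 had a single gene symbol, and the one with the highest mean stood for each of 18193 genes. A model with a mean per region was fitted over all 52 regions with limma 3.58.1 in R 4.3.3 (52 residual degrees of freedom), with contrasts against the equal-weight mean of 10 regions and Benjamini-Hochberg adjustment over all genes. Avp and Oxt were also tested by exact two-sided permutation of region means. The median SE was 0.0882 for a nucleus against the reference, and it reflects only the spread between arrays of a region.

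The naming rule took genes called in each nucleus (up to 20 higher and 10 lower) and examples from gene lists. Npnt, Strip2, Nts, Lrat, Vip, and the genes called in each nucleus at 1.5-fold alone that are in no list were named after their values were seen. The members and lists were chosen with earlier results of these data known. The fit was tested on simulated data with planted differences and noise between arrays. Apart from the planted genes, regions did not differ there, so that test does not bear on the spread between regions. Alternatives covered probe set choice, normalization, thresholds, reference regions, single arrays and the replicate block.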

Additional observations from a re-analysis of the deposited data

Results flagged for a closer look

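For 5 of the genes called in each nucleus, the size of the difference from the other hypothalamus was itself unequal between the nuclei, in limma's direct comparison of SO with Pa. The increase was larger in the supraoptic nucleus for Zic1, by 1.19, and for Caprin2, by 1.13. For Zic1 this held with the brighter probe set only: the other gave increases of 1.81 in SO and 1.78 in Pa. The decrease was larger there for Asb4, with a difference of -1.93 between the nuclei, for Gabra5, with -1.89, and for Cited1, with -1.04.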

How the results depend on the processing

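With region means as the samples, 0 genes were higher and 0 lower on the mean of both nuclei. Averaging all probe sets of a gene, 35 were lower on that mean, 263 lower in SO and 287 lower in SO than in Pa. In each nucleus, 6 genes were then higher, 5 of them among the main 6, and 12 lower, 11 of them among the 15. Meis2, Asb4, Fzd5, Nectin3 and Npnt were not called in each nucleus. With no fold threshold, the counts higher and lower were 3577 and 4297 for both nuclei, 4288 and 4862 for SO, 631 and 1317 for Pa, 2960 and 3529 for SO against Pa, and 164 and 425 in each nucleus. At 1.5-fold they were 292 and 352, 1101 and 1659, 88 and 229, 1415 and 1528, and 21 and 59. Without SCN and both SPa zones, 23 genes were lower in each nucleus, 12 of them among the 15. Avp then differed by 4.05 (exact permutation p = 0.0556) and Oxt by 2.61 (0.0833). Fewer regions give fewer splits than the 66 of the main test, so these p-values are not directly comparable with it. With quantile normalization of all regions, Avp differed by 3.96 (exact permutation p = 0.0606). Other alternatives were chosen after seeing the data. Against the regions with high added controls, 41 genes were higher in Pa and Oas1c turned to 0.0762. Against those with low added controls, 102 were lower on the mean of both nuclei, 95 lower in Pa, 11 higher in each nucleus and 30 lower in each. The cause of these shifts was not tested.

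Leaving out each SO or Pa array gave 66 to 82 genes higher and 53 to 63 lower for both nuclei, 4 to 6 higher in each and 14 to 16 lower in each; Avp ranged from 3.97 to 4.21 and Oxt from 2.62 to 2.90. Leaving out each reference array gave 6 higher in each and 14 to 17 lower. Deviations of same-numbered replicates correlated at -0.15 between SO and Pa. Over 66 pairs of regions they ran from -0.47 to 0.40 with a median of -0.02, and 19 pairs were over 0.1. Whether the replicate numbers mark a pairing in some regions was not tested. With a replicate block, the counts were 72 and 62 for both nuclei and 6 and 15 in each nucleus, and it changed no other call. Every region holds both replicate numbers, so the block could not change the differences, only their SE and p-values. The unchanged counts thus do not bear on whether the numbers mark a pairing.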

Other observations

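In the fit of every probe set, 19 genes were lower in each nucleus, adding Gpr50, Adcyap1, Arl2bp and Lcorl. Gpr50, an orphan receptor related to the melatonin receptors, was measured by a dimmer probe set at a mean of 4.87 in SO and 5.22 in Pa, against 11.45 in ME, 10.53 in Arc and 7.96 over the reference, a difference of -3.09 in SO and -2.75 in Pa; its brighter probe set gave -0.92 and -0.88. Adcyap1, the precursor of the peptide PACAP, was lower by 2.02 in SO and 1.10 in Pa with 1 of its probe sets.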
